A study of Homo sapiens with 6 samples.

Results

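Haem oxygenase and the genes of haem and iron handling were followed in a human prostate epithelial cell line before and after malignant transformation by arsenite. Of 10 genes chosen by name (HMOX1, HMOX2, BLVRA, BLVRB, FTL, FTH1, FECH, SLC40A1, TFRC and ALAS1), 9 were measured by a feature with a single gene symbol, out of 18417 genes in all. FTH1, the ferritin heavy chain gene, had no such feature and was not analysed here. Each of the 9 genes had 1 feature on the array.

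CAsE-PE cells are RWPE-1 cells that grew continuously in 5 µM sodium arsenite and became malignant. They were sampled after 30, 33.5 and 35 weeks of exposure, with 1 array at each time. RWPE-1 is an immortal, untreated line from normal prostate epithelium, immortalised with a human papillomavirus, and it was sampled at passages 18, 38 and 42, with 1 array at each passage. Both lines carry the same immortalisation and were grown in the same serum-free keratinocyte medium with pituitary extract and epidermal growth factor. The passage of the exposed cells is not given in the sources used here, so exposure, transformation and time in culture cannot be told apart. CAsE-PE is 1 transformed line, and nothing in the labels says that the times or passages were separate cultures, so the p-values reflect only how far these single arrays spread, which may be technical.

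Array medians lay between 91.7 and 97.2 intensity units. Over features with 1 symbol, log2 values of same-group arrays correlated at 0.985 to 0.995, and those of arrays from different groups at 0.957 to 0.969. The general epithelial markers, among them EPCAM, KRT8 and KRT18, were all outside the dimmest 33.3% of genes by mean over all 6 arrays (called dim from here on). Of these 7 markers, 3 were higher in CAsE-PE and 0 lower (limma, adjusted p under 0.05). The higher ones were DSP by 1.06 (SE 0.15), CLDN4 by 0.58 (SE 0.15) and CDH1 by 0.39 (SE 0.091) on the log2 scale. With 1 array left out in turn, 1 to 3 markers of this list were higher. All 4 measured markers of luminal prostate epithelium, KLK3 included, were dim. Of 7 measured basal markers, none of them dim, 3 were lower in CAsE-PE than in RWPE-1 and 1 was higher (limma, adjusted p under 0.05). Over all genes 8.71% were called lower and 9.04% higher. The basal keratin genes KRT14 and KRT15 fell by 1.60 (SE 0.31, adjusted p = 0.00748) and 1.77 (SE 0.34, adjusted p = 0.00714) on the log2 scale, and LAMB3, a laminin chain, fell by 1.48 (SE 0.15). TRIM29 rose by 0.48 (SE 0.14) and missed the threshold with at least 4 of the 6 arrays left out in turn, and the basal keratin gene KRT5 differed by −0.12 (SE 0.11, adjusted p = 0.443). The part of these marker shifts in the results that follow was not tested. Precision is limited by the small number of arrays, which come with no detection call, so dim signals cannot be told from background.

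Haem is an iron porphyrin made in mitochondria and cytosol, beginning with aminolevulinate synthase and ending with ferrochelatase, which inserts the iron. Haem oxygenases open the ring and release iron, carbon monoxide and biliverdin, which the biliverdin reductases turn into bilirubin. Freed iron is stored in ferritin or leaves through ferroportin, and new iron enters with transferrin through the transferrin receptor. HMOX1 is the inducible haem oxygenase, held down by the repressor BACH1 and switched on through NRF2, and arsenite is one of its classic inducers, while HMOX2 is the constitutive form. Ferritin and the transferrin receptor are also controlled after transcription, by iron regulatory proteins that bind stem-loops in their RNAs, which an array of RNA levels sees only in part.

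Upstream sequences of FTL, FECH and TFRC are shown because these genes, with HMOX1, were those whose CAsE-PE arrays all lay above all RWPE-1 arrays. They are the 250 bases before the annotated start in RefSeq, build GRCh38.p14, for FTL at chr19:48965059-48965308 on the plus strand, for FECH at chr18:57586703-57586952 on the minus strand and for TFRC at chr3:196082091-196082340 on the minus strand. Capitals mark matches, on either strand, to TGACNNNGC (the core of the antioxidant response element bound by NRF2 and BACH1), ACGTG (the core of the hypoxia response element) and CCAAT (the CCAAT box).
FTL: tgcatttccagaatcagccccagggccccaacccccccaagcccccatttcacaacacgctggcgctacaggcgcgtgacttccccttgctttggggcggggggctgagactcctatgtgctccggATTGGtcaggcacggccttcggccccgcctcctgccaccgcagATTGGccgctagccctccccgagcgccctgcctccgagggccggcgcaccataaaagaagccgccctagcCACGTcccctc
FECH: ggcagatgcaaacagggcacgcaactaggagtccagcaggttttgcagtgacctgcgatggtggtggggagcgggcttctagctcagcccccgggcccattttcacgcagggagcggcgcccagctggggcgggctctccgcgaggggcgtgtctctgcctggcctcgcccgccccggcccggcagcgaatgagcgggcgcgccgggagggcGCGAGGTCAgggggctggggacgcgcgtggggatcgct
TFRC: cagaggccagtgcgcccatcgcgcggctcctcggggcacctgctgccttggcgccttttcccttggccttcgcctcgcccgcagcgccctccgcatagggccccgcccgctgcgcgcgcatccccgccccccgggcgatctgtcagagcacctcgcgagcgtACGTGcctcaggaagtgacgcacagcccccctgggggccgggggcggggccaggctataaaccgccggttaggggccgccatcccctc

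FECH held 1 match to TGACNNNGC, which began 38 bases before its start, and FTL and TFRC held none. TFRC held 1 match to ACGTG, beginning 88 bases before its start, and FTL held 1 match to ACGTG and 2 to CCAAT. Over all 35116 upstream windows of this length, 10.9% held TGACNNNGC, 18.5% held ACGTG and 32.0% held CCAAT. HMOX1 had no upstream window in the sequences used here, so it was neither shown nor searched. The other 8 measured genes of the set had 9 windows, since HMOX2 had 2. Of these windows 1 held TGACNNNGC, 3 held ACGTG and 4 held CCAAT. A match describes the letters of the window and no binding was measured.

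FTL is also shown at chr19:48965329-48965358 (plus strand, GRCh38.p14), inside the transcribed stretch, because it carries the loop of the iron responsive element through which iron regulatory proteins hold back ferritin translation. Capitals mark the loop.
FTL loop: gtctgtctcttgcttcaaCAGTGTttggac
The letters CAGTG stood on the sense strand of 6.48% of all windows of 50 transcribed bases. This control acts on the protein made from the RNA and was not measured by these arrays.

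The comparison of CAsE-PE with RWPE-1 asks how the transformed cells differ from their untreated parent line. Of the 9 genes, 3 rose in CAsE-PE (HMOX1, FECH and TFRC), 0 fell and 6 did not pass the threshold, an adjusted p under 0.05 from limma over all genes. At an unadjusted p under 0.05, 4 were higher and 1 lower, where 15.1% of all genes were higher and 17.3% lower. Over all 18417 genes, 9.04% were called higher and 8.71% lower, together 17.7%. For HMOX1, FTL, FECH and TFRC the CAsE-PE arrays did not overlap those of RWPE-1, always with CAsE-PE above. The groups were apart for 38.9% of all genes, 16.1% with CAsE-PE above and 22.8% with CAsE-PE below. The median difference over the 9 genes was 0.19, against −0.062 over all genes.

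**Figure D1:**
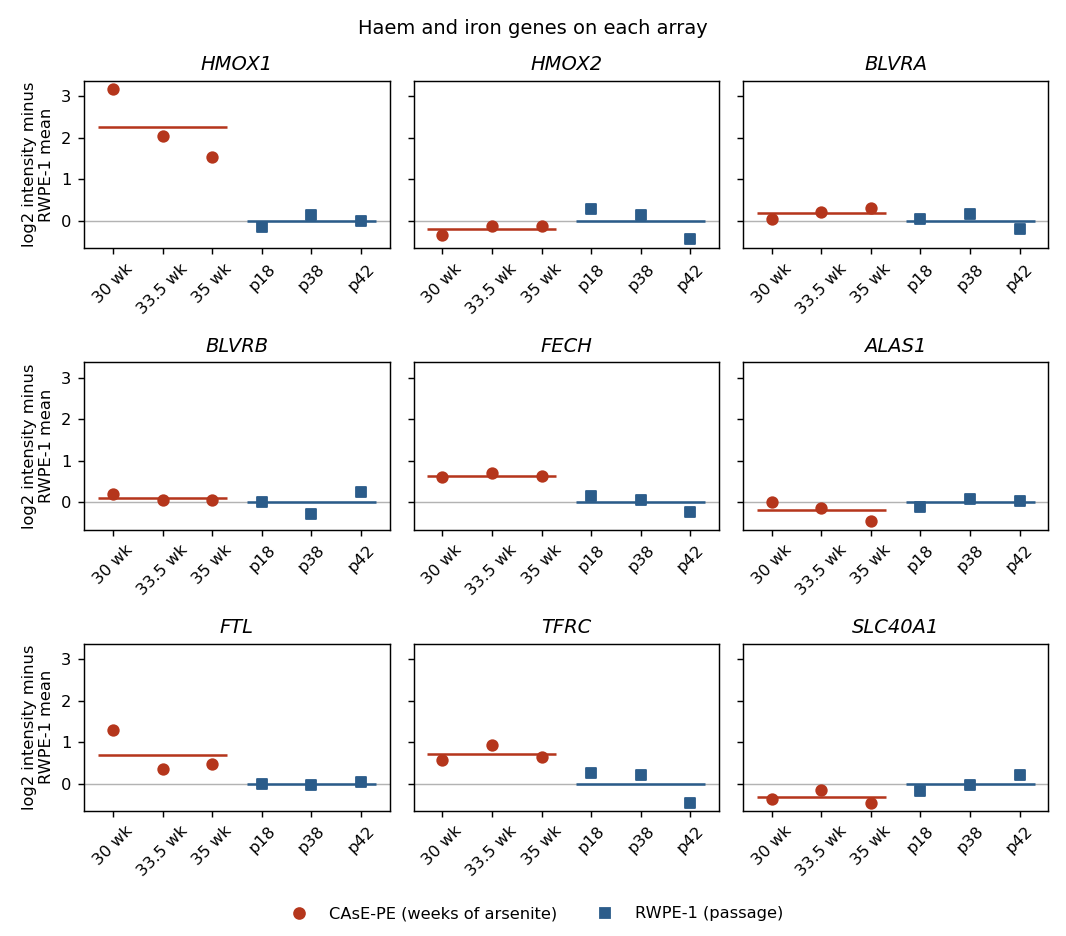
Level of each haem and iron gene on each array, as log2 intensity minus that gene's RWPE-1 mean (vertical axis, the same in all panels). Circles are CAsE-PE arrays by weeks of arsenite, squares RWPE-1 arrays by passage, and bars the group means. HMOX1 stood 3.19, 2.04 and 1.53 above the RWPE-1 mean at 30, 33.5 and 35 weeks.

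HMOX1 (feature 8072678, chromosome 22), the inducible haem oxygenase, reached an intensity of 855 at 30 weeks, 385 at 33.5 weeks and 271 at 35 weeks in CAsE-PE, against 83.9, 104 and 92.2 in RWPE-1 at passages 18, 38 and 42. Every transformed array was above every untreated array, and the array at 30 weeks was the highest. On the log2 scale HMOX1 averaged 8.81 ± 0.85 in CAsE-PE and 6.55 ± 0.15 in RWPE-1 (SD, n = 3 each). The difference was 2.25 (SE 0.34, adjusted p = 0.00221), which is 4.77-fold. The RWPE-1 intensities lay near the medians of those arrays, 93.3 to 97.2. Without a detection call the baseline of this fold is uncertain. Only 1.55% of all genes were called and at least 2-fold higher. With 1 array left out in turn the difference lay between 1.79 and 2.62, and the call held in all 6 fits (highest adjusted p = 0.0110). In RNA from whole cultures, more cells that make a transcript and more RNA per cell cannot be told apart.

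HMOX1 lies among genes that were also higher. Of its 24 nearest measured neighbours on chromosome 22, 12 on each side and none of them dim, 15 rose, 0 fell (limma), and their median difference was 0.52. The HMOX1 difference exceeded that median by 1.73, and the largest difference among the neighbours was 1.23. The part of this chromosome stretch in the HMOX1 result was not tested.

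HMOX2 (feature 7992987, chromosome 16), the constitutive haem oxygenase, had intensities of 837, 968 and 982 in CAsE-PE, against 1286, 1175 and 787 in RWPE-1. The groups overlapped, with the lowest and the highest value both in RWPE-1. Its difference was −0.19 (SE 0.18, adjusted p = 0.476), with a 95% interval of −0.59 to 0.20.

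BLVRA and BLVRB, the biliverdin reductases that act after haem oxygenase, did not pass the threshold either. BLVRA (feature 8132515, chromosome 7) had intensities of 147, 167 and 177 in CAsE-PE, against 147, 160 and 124 in RWPE-1, a difference of 0.19 (SE 0.13, interval −0.097 to 0.47, adjusted p = 0.334). BLVRB (feature 8036913, chromosome 19) had 314, 281 and 283 in CAsE-PE, against 275, 225 and 325 in RWPE-1, a difference of 0.10 (SE 0.14, interval −0.21 to 0.42, adjusted p = 0.638). In both genes the groups overlapped, so of the 4 genes that break down haem to bilirubin, HMOX1 was the 1 that rose.

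At the ends of haem synthesis the last enzyme rose and the first did not pass the threshold. FECH (feature 8023466, chromosome 18), ferrochelatase, had intensities of 167, 180 and 170 in CAsE-PE, against 123, 115 and 94.1 in RWPE-1. All 3 transformed arrays lay close together and above the untreated ones. FECH averaged 7.44 ± 0.056 in CAsE-PE and 6.79 ± 0.20 in RWPE-1 on the log2 scale (SD, n = 3 each), a difference of 0.64 (SE 0.12, adjusted p = 0.00617) or 1.56-fold. The call held with any 1 array left out, at adjusted p-values between 0.00928 and 0.0249, and was lost when tested against a 1.5-fold change.

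ALAS1 (feature 8080184, chromosome 3), the housekeeping aminolevulinate synthase whose RNA falls when haem is plentiful, had intensities of 388, 348 and 283 in CAsE-PE, against 357, 408 and 392 in RWPE-1. The array at 35 weeks was the lowest of all 6, and the other 2 transformed arrays lay within or just under the untreated range. The difference was −0.19 (SE 0.13, interval −0.49 to 0.11, adjusted p = 0.345).

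FTL (feature 8030171, chromosome 19), the ferritin light chain, had intensities of 2873, 1490 and 1633 in CAsE-PE, against 1177, 1143 and 1208 in RWPE-1. The array at 30 weeks stood far above the other 2 transformed arrays, which were still above all untreated ones. FTL averaged 10.90 ± 0.51 in CAsE-PE and 10.20 ± 0.040 in RWPE-1 (log2, SD, n = 3 each), a difference of 0.70 (SE 0.22) that missed the threshold (adjusted p = 0.0541). The value depended on the 30-week array: without it the difference was 0.41 with a smaller SE of 0.11 and passed (adjusted p = 0.0326), and without the 33.5-week array it was 0.88 and passed as well (adjusted p = 0.0294). It also passed with arrays centred on their medians (0.75, adjusted p = 0.0464) and with array weights (0.58, adjusted p = 0.0174). FTL missed the threshold in every other fit tried. The adjusted p (limma) was 0.0802 after quantile normalisation and 0.0705 with an intensity trend and robust prior. With any RWPE-1 array left out it lay between 0.108 and 0.145, and without the latest CAsE-PE array it was 0.0707. Ferritin genes have many processed pseudogenes of near-identical sequence, so the FTL value is uncertain.

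TFRC (feature 8093053, chromosome 3), the transferrin receptor that brings iron in, had intensities of 1126, 1449 and 1202 in CAsE-PE, against 919, 885 and 550 in RWPE-1. The passage 42 array was the lowest, and the remaining untreated arrays came near the 30-week value without reaching it. TFRC averaged 10.29 ± 0.19 in CAsE-PE and 9.58 ± 0.41 in RWPE-1 (log2, SD, n = 3 each), a difference of 0.71 (SE 0.20, adjusted p = 0.0348) or 1.64-fold. Leaving out the passage 38, the 33.5-week or the 35-week array ended the call, at adjusted p-values of 0.0536, 0.105 and 0.0833 in that order. The difference was 0.47 without the passage 42 array and still passed (adjusted p = 0.0465).

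SLC40A1 (feature 8057677, chromosome 2), ferroportin, the iron exporter, was dim. Its intensities were 24.9, 29.1 and 23.3 in CAsE-PE, against 28.6, 31.9 and 37.8 in RWPE-1. The groups overlapped by the 33.5-week and passage 18 arrays. The difference was −0.33 (SE 0.13, unadjusted p = 0.0325, adjusted p = 0.118).

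**Figure D2:**
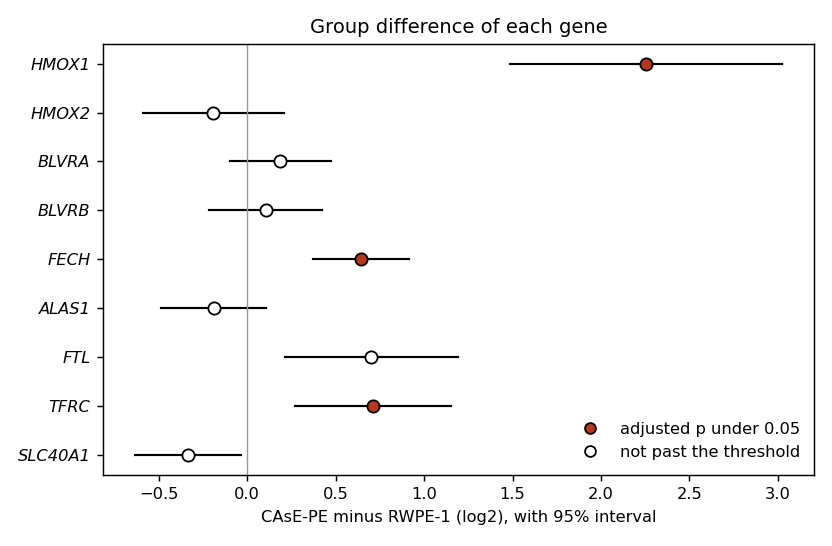
Difference of each gene between CAsE-PE and RWPE-1 on the log2 scale (horizontal axis, CAsE-PE minus RWPE-1), with its 95% interval from the limma fit, 3 arrays in each group. Filled circles passed the adjusted threshold: HMOX1 at 2.25, TFRC at 0.71 and FECH at 0.64. FTL, at 0.70, did not pass and is open.

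Around FTL, FECH and TFRC the neighbouring genes did not rise as a block. The median difference of the 24 neighbours was −0.10 for FTL, 0.058 for FECH and −0.13 for TFRC, and between 0 and 3 of them were called higher.

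Within CAsE-PE, HMOX1 was lower at each later week. A second limma model held the group, the weeks within CAsE-PE and the passage within RWPE-1, with 2 residual degrees of freedom. In it HMOX1 fell by 0.33 on the log2 scale per week of exposure (SE 0.037, adjusted p = 0.0199), the 1 of the 9 members called for weeks, where 46 of 18417 genes, or 0.25%, were called. At an unadjusted p under 0.05 these were 2 members, HMOX1 and FTL, against 11.3% of all genes. Relative to the mean RWPE-1 intensity, HMOX1 stood at 9.17-fold at 30 weeks, 4.14-fold at 33.5 weeks and 2.90-fold at 35 weeks. Without the 30-week array the slope was −0.34 per week from the remaining 2 transformed arrays, and it no longer passed (unadjusted p = 0.0365, adjusted p = 1.00). A line through 2 arrays leaves no spread about it, so these p-values measure none. With 1 array at each week, time and differences between single cultures or arrays cannot be told apart.

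FTL had a slope of −0.18 per week (SE 0.044, unadjusted p = 0.00236, adjusted p = 0.145). It stood at 2.44-fold of the RWPE-1 mean at 30 weeks and then at 1.27-fold and 1.39-fold, so the slope rests on the 30-week array and was 0.088 without it. Without the 35-week array the FTL slope was −0.27 and passed (adjusted p = 0.0480), in a fit that called 206 genes for weeks, against 46 with all arrays. That slope runs exactly through the 2 remaining transformed arrays, so its p-value measures no spread about the week line. ALAS1 had a slope of −0.083 (SE 0.037, adjusted p = 0.450). The slopes of FECH (0.0091) and TFRC (0.034) had standard errors of 0.039 and 0.056 and did not pass.

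Passage within RWPE-1 moved none of the members past the threshold in the same limma model, where 0 of 9 were called and 1, HMOX2, had an unadjusted p under 0.05 (slope −0.022 per passage, SE 0.0094, unadjusted p = 0.0418, adjusted p = 0.848). Over all genes 0.0217% were called, and 5.82% had an unadjusted p under 0.05. HMOX1 had a slope of 0.0086 per passage (SE 0.0075, adjusted p = 0.882).

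**Figure D3:**
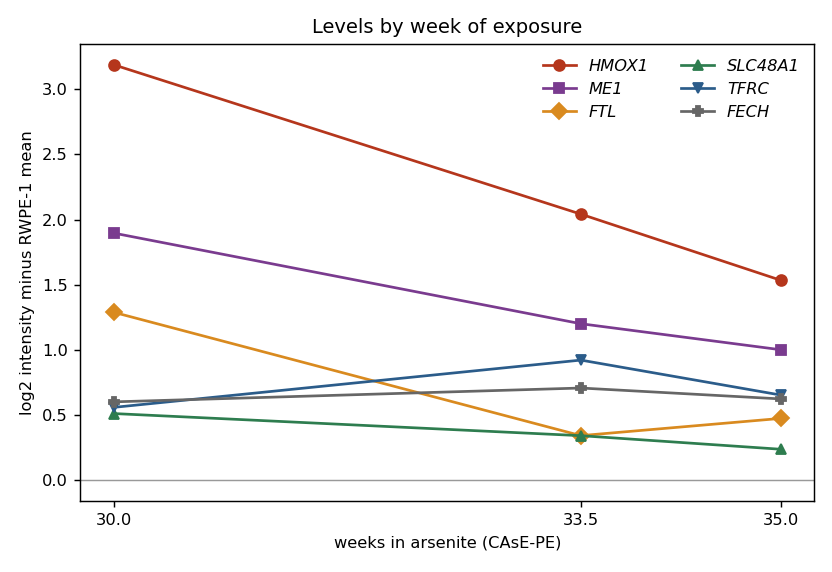
Level of 6 genes at 30, 33.5 and 35 weeks of arsenite (horizontal axis), as log2 intensity minus the gene's RWPE-1 mean (vertical axis), with 1 CAsE-PE array at each week and no error bar. HMOX1, ME1 and SLC48A1 were highest at 30 weeks and lowest at 35 weeks. ME1 and SLC48A1 were chosen for their likeness to HMOX1 on these arrays. FTL was highest at 30 weeks, and TFRC and FECH were highest at 33.5 weeks.

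Genes were ranked by how closely their log2 values followed those of HMOX1 over the 6 arrays. The 5 closest were SLC48A1, which carries haem from lysosomes into the cytosol (r = 0.999), ME1, the malic enzyme that supplies NADPH (r = 0.997), ARHGAP11B (r = 0.997), GGA3, a sorting adaptor of the Golgi (r = 0.996), and the dim MED12L (r = 0.995). The arrays fall into 2 groups, so any gene with a group difference shares part of this pattern, and r is a description. SLC48A1 had intensities of 428, 380 and 354 in CAsE-PE, against 298, 303 and 299 in RWPE-1. Its difference of 0.36 (SE 0.10, adjusted p = 0.0420) was small beside that of HMOX1 and lost its call with any 1 array left out. ME1 had intensities of 1989, 1227 and 1068 in CAsE-PE, against 531, 560 and 510 in RWPE-1, a difference of 1.37 (SE 0.20, adjusted p = 0.00199). Both stepped down from week to week, a likeness to HMOX1 that follows from their selection by r on these same arrays. Their own week slopes did not pass (limma, adjusted p = 0.663 for SLC48A1 and 0.0912 for ME1). After quantile normalisation SLC48A1 ranked 19 and ME1 ranked 1, and without the 30-week array they ranked 11 and 26. Among the other members FTL came nearest, with r = 0.93 at rank 513, followed by FECH with 0.84 at rank 1612 and TFRC with 0.69 at rank 3026.

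**Figure D4:**
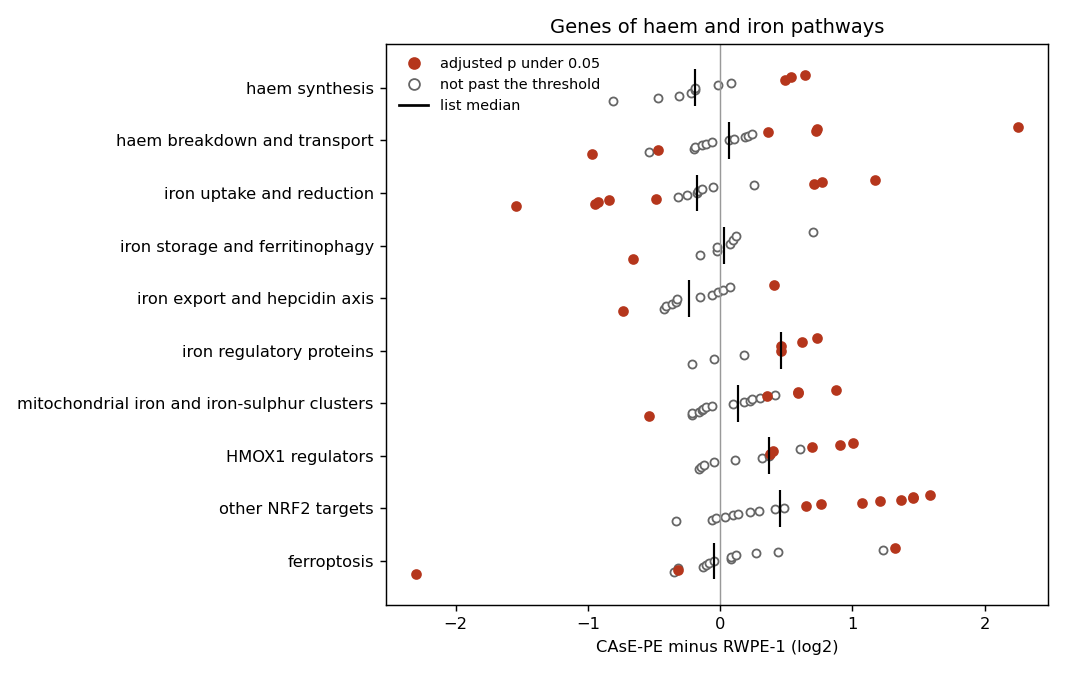
Differences between CAsE-PE and RWPE-1 (horizontal axis, log2, CAsE-PE minus RWPE-1) for every measured gene of 10 haem and iron lists, 1 list in each row. Filled circles passed the adjusted threshold, open circles did not, and the upright bars are list medians, which were 0.46 for the iron regulatory proteins and −0.24 for iron export.

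The wider pathways were read from lists of genes by role, in which genes beyond the largest 2 rises and 2 falls were named after their values were seen. The counts of this and the following lists stand beside 9.04% of all genes called higher and 8.71% called lower. At an unadjusted p under 0.05 (limma) the shares over all genes were 15.1% higher and 17.3% lower. Of 11 measured genes of haem synthesis, 3 rose, 0 fell and 8 did not pass (limma, with 3 higher and 3 lower at an unadjusted p under 0.05). The median difference was −0.19. Beside FECH, the risers were CLPX, a mitochondrial unfoldase that acts on aminolevulinate synthase (0.54, SE 0.096), and TMEM14C, a mitochondrial porphyrin transporter (0.49, SE 0.11), which missed the threshold with either of 2 arrays left out (adjusted p up to 0.0715). Both uroporphyrinogen enzymes were lower without passing the threshold: UROD differed by −0.47 (adjusted p = 0.0615) and UROS, uroporphyrinogen synthase, by −0.81 (SE 0.32, adjusted p = 0.116). UROS had intensities of 132, 340 and 338 in CAsE-PE, against 482, 458 and 373 in RWPE-1, and was lowest on the 30-week array where HMOX1 was highest. Without the passage 42 array 1 gene of the list fell, and after quantile normalisation 2 fell.

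Of 17 genes of haem breakdown and transport, 4 rose, 2 fell and 11 did not pass, with a median difference of 0.069. Beside HMOX1 and SLC48A1 the risers were FLVCR2 (0.73, SE 0.15), which has been described as a haem importer and choline transporter, and ABCB6 (0.72, SE 0.10), a porphyrin transporter. FLVCR1, described as a haem exporter, fell by 0.97 on the log2 scale (SE 0.21, adjusted p = 0.0125). Its intensities were 148, 186 and 222 in CAsE-PE, against 454, 384 and 264 in RWPE-1. HEBP1, a haem-binding protein, fell by 0.47 (SE 0.10). Both falling genes lay among lowered neighbours, 16 of 24 lower with a median of −0.58 around FLVCR1 and 14 of 24 lower with −0.55 around HEBP1. The part of neighbouring genes in the results of these and the further list genes below was not tested. Without passage 38 neither passed (adjusted p = 0.0539 and 0.0731).

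Iron uptake and reduction had calls in both directions. Of 15 genes, 3 rose, 5 fell and 7 did not pass, with a median difference of −0.17. Over all genes 9.04% were called higher and 8.71% lower. Beside TFRC, the metalloreductase STEAP4 (1.17, SE 0.25), which was dim, and the siderophore-binding lipocalin LCN2 (0.77, SE 0.19) rose. SLC39A8, a transporter of zinc, manganese and iron, fell by 1.54 (SE 0.29, adjusted p = 0.00641), with intensities of 63.7, 94.5 and 107 in CAsE-PE, against 282, 363 and 159 in RWPE-1. The metalloreductases STEAP2 (−0.95, SE 0.26) and STEAP1 (−0.84, SE 0.20), the lipocalin receptor SLC22A17 (−0.92, SE 0.13) and the second transferrin receptor TFR2 (−0.48, SE 0.11) fell with it. STEAP2 was the 1 gene of this list called for weeks, with a slope of 0.24 per week (adjusted p = 0.0362), opposite in sign to that of HMOX1. DMT1, encoded by SLC11A2, differed by 0.26 (adjusted p = 0.0997). Without the passage 38 array 1 gene rose and 2 fell, and without the passage 18 array 3 fell. STEAP2 lost its call with 3 of the 6 arrays left out in turn, and LCN2, STEAP1 and TFR2 each with 2.

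Storage and export genes mostly did not pass, which was also so for 15148 of all 18417 genes. Of 8 genes of storage and ferritinophagy, 1 fell, PCBP4 (−0.66, SE 0.12), of the family of RNA-binding proteins that includes the iron chaperones PCBP1 (−0.022, adjusted p = 0.914) and PCBP2 (0.075, adjusted p = 0.616), and 0 rose (limma, 1 at an unadjusted p under 0.05, FTL). FTL was called in this list without the 30-week or the 33.5-week array. NCOA4, the receptor that takes ferritin to the lysosome, differed by 0.099 (adjusted p = 0.635). Of 12 genes of export and the hepcidin axis, 7 were dim, 1 rose (NEO1, 0.41, SE 0.12) and 1 fell (BMP2, −0.73, SE 0.14, among neighbours of which 16 of 24 were lower). The call of NEO1, a coreceptor of the hepcidin pathway, was lost with 5 of the 6 arrays left out in turn. Without the passage 42 or the 30-week array 2 genes of this list fell.

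Of 7 genes around the iron regulatory proteins, 4 rose and 0 fell (limma, also 0 at an unadjusted p under 0.05), with a median difference of 0.46. FBXL5 (0.46, SE 0.12), the iron-sensing part of the ubiquitin ligase that removes iron regulatory proteins, rose together with the ligase subunits RBX1 (0.73, SE 0.15) and CUL1 (0.62, SE 0.11), and with CIAO2A (0.46, SE 0.11), which serves iron-sulphur cluster delivery. SKP1, also in this list, differed by 0.18 (SE 0.15, adjusted p = 0.440) and did not pass. ACO1, the aconitase that is also iron regulatory protein 1, differed by −0.22 (adjusted p = 0.179). RBX1 and CUL1 lay among raised neighbours, 15 of 24 higher in each case with medians of 0.51, and 2 of the list rose without the passage 38 or the 35-week array. The FBXL5 call was lost with 4 of the 6 arrays left out in turn (adjusted p up to 0.122) and that of CIAO2A with 3 (up to 0.0842).

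Of 18 genes of mitochondrial iron and iron-sulphur clusters, 4 rose, 1 fell and 13 did not pass, with a median of 0.14. NFU1, a scaffold for late cluster delivery, had intensities of 144, 140 and 163 in CAsE-PE, against 88.2, 84.1 and 70.2 in RWPE-1, a difference of 0.88 (SE 0.12, adjusted p = 0.00132). LYRM4, a partner of the cysteine desulphurase (0.59, SE 0.14), and the co-chaperone and chaperone HSCB (0.59, SE 0.092, dim) and HSPA9 (0.35, SE 0.097) also rose. Leaving out arrays in turn ended the call of HSPA9 with 5 of the 6 and that of LYRM4 with 3. IBA57 fell by 0.54 (SE 0.12). The risers numbered 2 without the passage 38, the 33.5-week or the 35-week array. The fall of IBA57 did not pass without the 35-week array (limma, adjusted p = 0.0656). LYRM4 lay among neighbours of which 14 of 24 were higher, with a median difference of 0.53. TMEM14C, named above for haem synthesis, was the last of these 24 on chromosome 6, and the part of this stretch in its result was not tested.

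Among 13 regulators of HMOX1, 5 rose and 0 fell (limma, 7 higher and 0 lower at an unadjusted p under 0.05), with a median difference of 0.37. ATF4, the stress-response factor, rose by 1.00 (SE 0.16), the small MAF gene MAFG by 0.90 (SE 0.20), the haem-sensing repressor BACH1 by 0.69 (SE 0.16), NFE2L1 by 0.40 (SE 0.11) and EPAS1 by 0.38 (SE 0.11). The calls of NFE2L1 and EPAS1 were lost with 5 of the 6 arrays left out in turn, that of BACH1 with 3 and that of MAFG with 1. BACH1 had intensities of 449, 505 and 609 in CAsE-PE, against 395, 302 and 272 in RWPE-1, lowest at 30 weeks among the transformed arrays. NFE2L2, which encodes NRF2, differed by 0.11 (SE 0.19, adjusted p = 0.713) and its inhibitor KEAP1 by −0.13 (SE 0.10, adjusted p = 0.417). ATF4 lay among neighbours on chromosome 22 of which 11 of 24 were higher. It had intensities of 1787, 1434 and 1469 in CAsE-PE, against 626, 775 and 962 in RWPE-1 at passages 18, 38 and 42. ATF4 and BACH1 were the 2 regulators with an unadjusted p under 0.05 for passage (limma). Their slopes were 0.023 and −0.021 per passage, each with an adjusted p of 0.809. With 1 array left out between 1 and 5 regulators rose: 1 without the passage 38 array, 2 without the 35-week array, and 3 without the passage 18, passage 42 or 30-week array. After quantile normalisation 3 rose.

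Other NRF2 targets were set beside HMOX1. Among the 18 with a feature, 8 were called higher, 0 lower and 10 neither (limma, 11 higher and 0 lower at an unadjusted p under 0.05). The shares over all genes were 9.04% called higher and 8.71% called lower. Their median stood 0.51 above the RWPE-1 mean at 30 weeks, 0.36 at 33.5 weeks and 0.38 at 35 weeks. GCLM, a subunit of the enzyme that makes glutathione precursor, had intensities of 411, 315 and 275 in CAsE-PE, against 125, 111 and 93.0 in RWPE-1, a difference of 1.59 (SE 0.17). AKR1C1 rose by 1.46 (SE 0.26) and shares similar sequence with other AKR1C genes. SRXN1, another target, differed by −0.33 (adjusted p = 0.192), and 1 gene of the list fell without the 30-week array. Of 15 genes linked to ferroptosis, the iron-dependent form of cell death, 1 rose and 2 fell. The riser was GCH1, for tetrahydrobiopterin synthesis (1.32, SE 0.13). PTGS2 (−2.30, SE 0.23) and ALOX12 (−0.32, SE 0.094) fell, both dim, and the ALOX12 call was lost with 5 of 6 arrays left out in turn. PTGS2 is dim by its mean over all arrays, with intensities of 35.2, 29.3 and 24.1 in CAsE-PE, against 188, 173 and 98.6 in RWPE-1. GPX4, the lipid peroxidase, differed by 0.12 (adjusted p = 0.477) and ACSL4 by −0.048 (adjusted p = 0.843). Between 1 and 2 genes of this list rose with 1 array left out, and 1 fell in 5 of those 6 fits.

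Macrophages and red cell precursors are rich in the genes described here, so their markers were read beside them. For scale, 9.04% of all genes were called higher and 8.71% lower. Of 9 macrophage and leukocyte markers, 7 were dim, 0 were higher and 2 lower (limma, 0 and 3 at an unadjusted p under 0.05), and their summed intensity was 842 to 1145 in CAsE-PE and 1426 to 1724 in RWPE-1. The 2 lower ones were CD68 (−0.89) and CD14 (−0.43), CD68 being a lysosomal protein that epithelial lines also make. Without the passage 18, the passage 38 or the 35-week array 1 of the 9 was lower. PTPRC and CD163 were dim. Of 6 erythroid markers, 4 were dim, HBB and ALAS2 among them, 0 were higher and 1 lower, GATA1, a call lost with any 1 array left out (limma, 0 and 2 at an unadjusted p under 0.05), and their summed intensity was 399 to 420 in CAsE-PE and 453 to 495 in RWPE-1. No marker of either list had a difference above 0. Over all genes 7467 of 18417 had a difference above 0, and the median was −0.062. The part of these markers in the results above was not tested. The fibroblast and endothelial lists had 6 of 7 and 5 of 6 measured markers dim.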

How the data were processed

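Total RNA of 6 samples was extracted with Trizol and a column kit, biotin-labelled and hybridised 1 sample to an array, per the labels. The values the authors deposited are linear intensities of 33252 features, and the sources used here do not give their background correction, summarisation or normalisation. The platform annotation named 1 symbol for 19460 features and several for 1754, and the remaining 12038 are unnamed here. Gene order came from the start positions in the RefSeq table (GRCh38.p14).

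The analysis used log2(intensity + 1), which shrinks fold changes of dim genes. For each of 18417 genes the brightest feature was kept. limma 3.58.1 (R 4.3.3; lmFit, eBayes, two-sided) gave the group difference with 4 residual degrees of freedom and, in a further model, slopes for weeks and passage. P-values were Benjamini-Hochberg adjusted over all genes and called under 0.05. Both limma fits were tested on simulated data, the trend model with no slope simulated. Motif searches used Python 3.11.15.

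Named genes were all members, the called genes with the largest 2 rises and 2 falls in each list, and the 5 genes most like HMOX1, and others were named after their values were seen. Members and lists were chosen with earlier results of these data known. Alternatives were quantile normalisation, median centring, pseudocounts of 0 and 16, leaving out the dimmest 33.3% of genes, averaging features, an intensity trend with a robust prior, array weights, a minimum change of 1.5-fold and each array left out in turn.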

Additional observations from a re-analysis of the deposited data

How the results depend on the processing

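No paired analysis was possible because nothing in the labels matches a passage of RWPE-1 to a week of CAsE-PE. The count of members called higher, 3, was 1 (HMOX1) when tested against a 1.5-fold change, 2 to 4 with 1 array left out in turn and 3 or 4 under the other settings. No member was called lower in any of these fits. HMOX1 stayed past the threshold in all of them, with differences of 1.79 to 2.62. The difference of BLVRB was −0.035 to 0.23 with 1 array left out, negative without the passage 38 array. The count of members called for weeks, 1, was 0 to 2 with 1 array left out, settings chosen after seeing the data that leave 1 residual degree of freedom. Where a CAsE-PE array was left out, that degree came from RWPE-1, so those p-values measure no spread about the week line. With 1 array left out the weekly slopes ranged from −0.046 to 0.0065 for BLVRB, −0.27 to 0.088 for FTL, −0.056 to 0.030 for FECH, −0.21 to 0.062 for SLC40A1 and −0.18 to 0.10 for TFRC. The slope of SLC40A1 was 0.0055 after quantile normalisation, against −0.0044 as deposited. The cause of these changes was not tested. Genes called in all numbered 3269, against 356 against a 1.5-fold change, 5342 with array weights, 1888 without the passage 38 array and 2094 without the 35-week array. Genes called for weeks numbered 46, against 18 with a pseudocount of 16, 31 without the dim genes and 7 without the 30-week array. With any other single array left out, the genes called for weeks numbered 166 to 226. Low signal limits SLC40A1, which was dim.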
